A study of Mus musculus with 20 samples.

Results

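The mouse heart was compared, in WT and Nsun6-KO animals, with the 4 other organs of a set of 20 RNA-seq libraries. The heart group holds the 4 libraries, of 20 in all, whose column in the count table names the heart, and the other 16 libraries come from the small intestine, liver, spleen, and kidney, with 4 libraries for each organ. Within every organ, 2 libraries were WT and 2 were Nsun6-KO, numbered replicate 1 and 2. All mice were female and 8 weeks old, and the KO strain carries a deletion of exons 3 and 4 of Nsun6, made with CRISPR/Cas9 in fertilized C57BL/6J eggs and therefore present in every organ. Nsun6 encodes an RNA methyltransferase that forms 5-methylcytosine. The study calls the libraries of a group biological replicates, but the labels do not say whether they came from separate animals, so the spread between them may be partly technical.

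Heart muscle cells contract through sarcomeres, in which thick filaments of myosin pull on thin filaments of actin between Z discs. Each beat starts with an electrical signal carried by sodium, calcium, and potassium channels, which is passed from cell to cell at the intercalated discs and releases calcium from the sarcoplasmic reticulum. The work is paid for mostly by the oxidation of fatty acids in densely packed mitochondria, and the heart also secretes hormones, of which the natriuretic peptides made by atria and ventricles are the best known. Many of these parts exist in a muscle form and a form used by other tissues, encoded by related genes.

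Levels are given as RPKM, that is, counts divided by the length of merged exons and by the TMM-scaled library size, and a mean level is followed by its SD. Values of the 4 heart libraries are always listed as WT replicate 1, WT replicate 2, KO replicate 1, and KO replicate 2. The heart libraries held 17959542, 36090637, 15897446, and 41763236 counts, and the other 16 held between 24772312 and 44508197, so the 2 heart libraries numbered 1 were the shallowest of the 20. In the header of the count table, both heart libraries numbered 2 also carry the word "pre", which no label explains. The log2 levels of any 2 heart libraries correlated across genes with a Pearson r of 0.967 to 0.982, and those of a heart library with a library of another organ with an r of 0.660 to 0.749, where genes are not independent replicates.

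Nsun6 itself was low in the heart, at 1.41, 1.33, 1.2, and 1.1 RPKM. The WT libraries lay above the KO libraries by a small margin. The mean of the heart libraries was 1.26 RPKM, against 1.55 RPKM for the small intestine, 1.03 for liver, 1.05 for spleen, and 0.924 for kidney, and Nsun6 was not called different in the heart from every other organ. The counts sum all exons of the gene, so they bear little on the deletion of only 2 of them.

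Myh6 (ENSMUSG00000040752, chr14:54941921-54966927 of GRCm38), the fast myosin heavy chain of the adult mouse heart, was at 1339, 1563, 1300.4, and 2260.2 RPKM in the heart libraries and at no more than 6.02 RPKM in the other 16. Its mean level was 1012-fold that of the small intestine, the next organ, with a fitted log2 fold change of 11.75 ± 1.31 (SE) and an adjusted p of 4.14e-06. All 4 heart libraries stood far above every other library. Tnnt2 (chr1:135836354-135852260), cardiac troponin T, was at 1479, 1081, 1689, and 1228 RPKM against at most 7.93 RPKM elsewhere. Actc1 (chr2:114047282-114053548), cardiac α-actin, was at 8153, 5336, 7533, and 6080.4 RPKM against at most 39.5 RPKM elsewhere. The 3 defining markers of heart muscle were thus present in each library labelled heart, and in each of them the highest value outside the heart belonged to 1 small intestine library, KO replicate 1, as described further on.

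**Figure D1:**
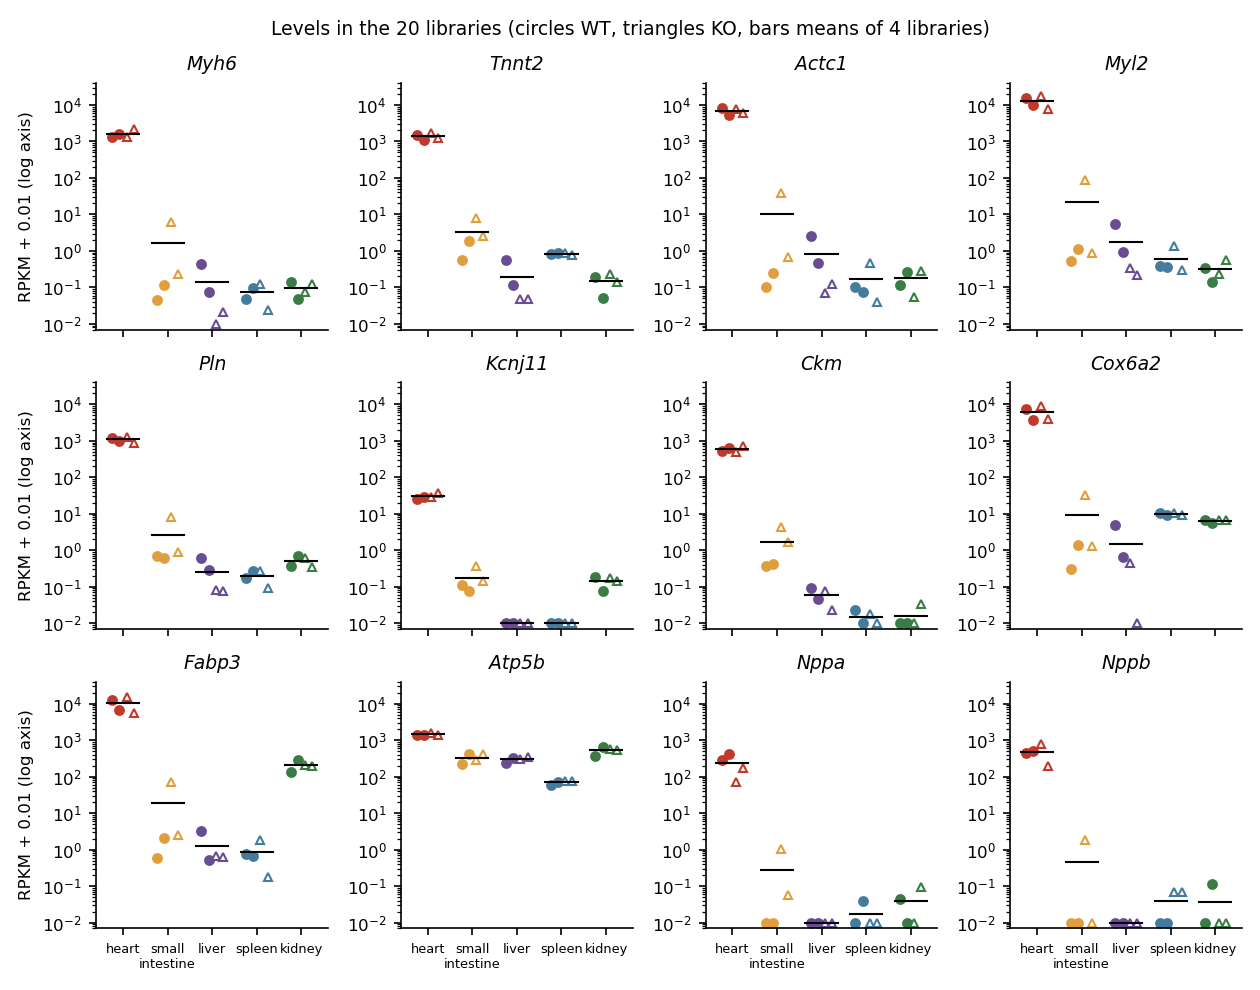
Levels of 12 genes in each of the 20 libraries, in RPKM with 0.01 added, on a logarithmic axis; circles are WT libraries, triangles KO libraries, and bars the means of 4 libraries per organ. The heart points stand above all others for every gene shown, by far for Myh6 or Nppb and by a smaller step over the kidney for Atp5b, and the highest small intestine point of Myh6, Actc1, and Myl2 is KO replicate 1.

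Across all 21168 genes that passed the filter on low counts, the quasi-likelihood test of edgeR, with p-values adjusted by the Benjamini-Hochberg method, called at an adjusted p under 0.1 and more than 2-fold 4841 genes (22.9%) higher in the heart than the mean of the other 4 organs and 4019 (19%) lower. The stricter call used for the rest of this account needs both thresholds against each of the 4 organs separately. By it, 1868 genes (8.82%) were higher in the heart than in every other organ and 867 (4.1%) were lower. In 1742 of the 1868 genes (93.3%) all 4 heart libraries lay above all 16 others, and the same was true of 2346 (11.1%) of all genes tested. The kidney had the fewest genes lower than the heart, with 3954 (18.7%) higher in the heart, and it was the next highest organ for 706 of the 1868. Since libraries are scaled to one another, changes are relative to a median log2 fold change of -0.13 over all genes tested. These libraries come from dissected, ground tissue and not from sorted cells, so a difference in the number of cells of a type and a difference in the RNA of each cell cannot be told apart.

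The heart difference spanned a wide range. The median fold of the 1868 genes to the next organ was 4.58, 1048 (56.1%) exceeded 4-fold, 586 (31.4%) exceeded 10-fold, and 167 (8.94%) exceeded 100-fold. Of the 1868 genes, 43 were listed at 0 in all 16 other libraries. The fold is the ratio of mean levels, whereas the fitted log2 fold change averages both genotypes on the log scale, so for a gene with 1 high library elsewhere the latter is larger. Sarcomere and Z disc genes had the largest steps, ion channels and calcium handling genes came next, and the nuclear subunits of the respiratory chain were separated from the kidney by little more than 2-fold. Lists of related genes were written to follow these groups, and their counts stand beside the background above.

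**Figure D2:**
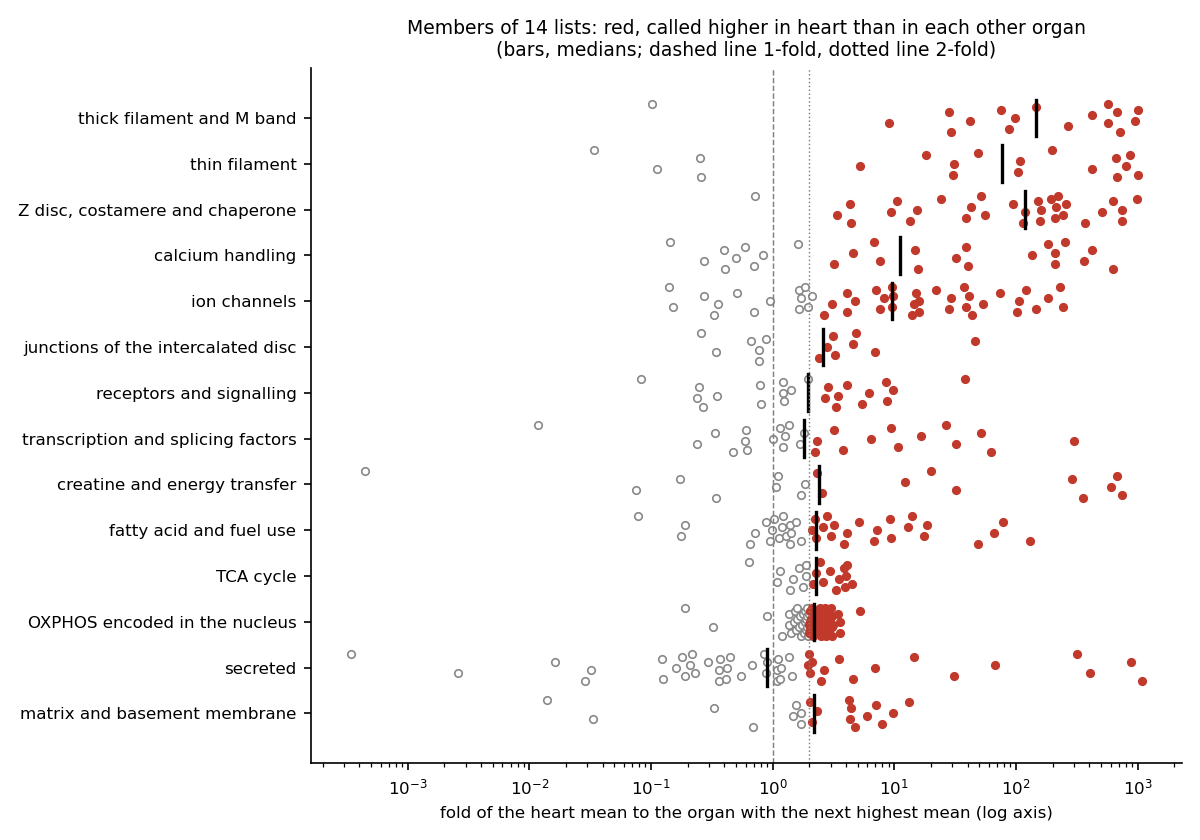
Fold of the heart mean to the organ with the next highest mean, on a logarithmic axis, for the members of 14 gene lists; each point is 1 gene, red where it was called higher in the heart than in every other organ, and bars are medians. The medians fall from 146-fold for the thick filament to 2.17-fold for nuclear subunits of oxidative phosphorylation, those of receptors and of transcription factors are 1.95 and 1.79, and that of secreted genes lies below 1.

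Of the 17 thick filament and M band genes, 16 were called higher in the heart than in every other organ, with a median fold of 146 to the next organ. Myl2, the ventricular regulatory light chain of myosin, was the gene with the most counts in the heart, 2.30% of the total on average. It stood at 15319, 10266, 18052, and 7900.2 RPKM, and the fold to the next organ was 571 (log2 fold change 11.06 ± 1.40 (SE), adjusted p = 1.26e-05). Myl3, the ventricular essential light chain, had a mean of 3363 ± 751 RPKM (SD, n = 4), and Mybpc3, the cardiac myosin binding protein C, of 526 ± 84.3 RPKM. Ttn, the giant protein that spans the sarcomere from Z disc to M band, was at 66.5, 56.2, 54.4, and 84.8 RPKM and 419.6-fold above the spleen; it was chosen after its values were seen. Myom1, which crosslinks myosin at the M band, Smpx, and Mylk3, the kinase of the cardiac light chain, followed with 98.3-, 74.9-, and 41.6-fold. The exception in the list was Mybpc1, the slow skeletal form of the binding protein, at 0.0799 RPKM in the heart and 0.791 RPKM in the spleen.

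In the thin filament, 14 of 18 genes were called, with a median fold of 76.7. After cardiac α-actin, troponins C and I had the highest levels. Tnnc1, the calcium-binding troponin C of heart and slow muscle, was at 6608, 4164, 8263, and 3858 RPKM, 797-fold above the small intestine. Tnni3, the inhibitory troponin of the heart, was at 6806, 3851, 7505, and 3881 RPKM, 674-fold above the same organ (log2 fold change 10.64 ± 1.15 (SE), adjusted p = 2.88e-06). Lmod2, which elongates thin filaments, reached 1013-fold at a heart mean of 352 RPKM. Not all members were called. Tpm1, the main tropomyosin of the heart, was 30.9-fold higher in the heart than in the small intestine, whereas Tpm2 was at 6.38 RPKM in the heart against 56.4 RPKM in the small intestine and Tpm3 at 11.2 against 44 RPKM. Tnni1, the slow skeletal troponin I, was at 0.115 RPKM in the heart and 3.39 RPKM in the small intestine.

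Of 31 tested genes of the Z disc, costamere, and their chaperones, 30 were called, with a median fold of 118. Tcap, which caps titin in the Z disc, was at 2902, 1045, 2978, and 2207 RPKM, and Csrp3, the muscle LIM protein, at 1254, 760.0, 1673, and 637 RPKM. Fhl2 had a mean of 2285 ± 733 RPKM and was 94.5-fold above the small intestine. Myoz2, the cardiac calsarcin, and Ankrd1, a stretch-responsive protein of the titin complex, stood 739- and 367-fold above the next organ. Some members had smaller steps. Des, the muscle intermediate filament desmin, was 4.35-fold above the small intestine, and Cryab, a small heat shock protein, 13.4-fold above the kidney. Pdlim3 was the tested member not called, at 4.7 RPKM in the heart and 6.58 RPKM in the small intestine, and Myoz1, the skeletal muscle relative of Myoz2, was too low to test. Together the 67 genes of the 3 sarcomere lists took 12.03% to 14.3% of all counts in a heart library, against 0.109% to 0.378% in the small intestine and no more than 0.0995% in any library of the liver, spleen, or kidney. Each of these 3 counts of called genes stayed the same whichever library was left out.

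The DNA just upstream of sarcomere and calcium genes is shown because it is a feature that neither the choice of libraries nor the counts used. Below are the 150 bases before the start of 5 of the called genes, from RefSeq on GRCm38.p6, written 5′ to 3′ on the strand of the gene. For Actc1 and Myl3 the RefSeq start lies inside the longer span that the count table gives the gene. The 5 were picked because they hold a match, and Tnni3, Csrp3, Actn2, and Ckm hold no match to the 4 motifs named next in the 250 bases before their starts. Capitals mark matches on either strand to 4 motifs of factors known from muscle genes: MCAT (CATTCC, bound by TEAD factors), GATA (GATA itself, with A or T before and A or G after it), the MEF2 site, and the CArG box bound by SRF.
Tnnt2 (chr1:135836184-135836333, plus strand): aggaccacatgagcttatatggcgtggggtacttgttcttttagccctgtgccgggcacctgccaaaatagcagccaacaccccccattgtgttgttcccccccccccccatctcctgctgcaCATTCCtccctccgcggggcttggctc
Actc1 (chr2:114052876-114053025, minus strand): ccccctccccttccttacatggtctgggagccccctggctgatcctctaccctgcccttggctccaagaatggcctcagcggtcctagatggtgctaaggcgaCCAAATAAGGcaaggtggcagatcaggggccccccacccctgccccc
Myl3 (chr9:110763528-110763677, plus strand): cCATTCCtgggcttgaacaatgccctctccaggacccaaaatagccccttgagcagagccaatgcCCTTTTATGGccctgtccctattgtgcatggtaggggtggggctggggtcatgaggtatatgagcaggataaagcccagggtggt
Mybpc3 (chr2:91117994-91118143, plus strand): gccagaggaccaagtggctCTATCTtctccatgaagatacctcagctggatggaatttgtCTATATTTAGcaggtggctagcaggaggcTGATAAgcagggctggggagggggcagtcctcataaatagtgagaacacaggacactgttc
Casq2 (chr3:102086265-102086414, plus strand): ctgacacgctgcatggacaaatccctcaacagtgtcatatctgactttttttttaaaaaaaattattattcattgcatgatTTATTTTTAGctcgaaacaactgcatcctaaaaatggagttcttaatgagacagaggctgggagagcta

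Tnnt2 holds an MCAT match, Actc1 a CArG box, Myl3 an MCAT match and a CArG box, Mybpc3 a MEF2 site between 2 GATA matches, and Casq2 a MEF2 site. In the 250 bases before the start, a MEF2 site was found in 8 of the 49 promoters matched to called sarcomere and Z disc genes (16.3%), in 10.9% of the 376 promoters of all called genes with more than 10-fold, in 4.66% of the 1223 promoters of all called genes, and in 1.92% of the promoters of all genes tested. A CArG box was found in 14.3% of the sarcomere promoters and 1.21% of those of all genes tested, and an MCAT match in 30.6% and 11.2%. For the 47 promoters of called genes of oxidative phosphorylation and the TCA cycle, the count was 0 for the MEF2 site and 0 for the CArG box. In so few promoters, counts of 0 lie close to the shares of all genes tested, 1.92% and 1.21%. A GC box (GGGCGG) was found in 38.3% of the 47, against 24.5% of the sarcomere promoters and 51.6% of those of all genes tested. Over all 27025 promoters of the table the shares were 3.01% for the MEF2 site, 1.4% for the CArG box, 12.6% for MCAT, 27.1% for GATA, and 32.9% for the GC box. GATA matches stood in 38.8% of the sarcomere promoters and 19.6% of those of all genes tested. A match is a string of letters and not a measured binding site.

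Calcium handling genes were called in 17 of 26 cases, with a median fold of 11.2. Atp2a2 encodes the SERCA2 pump that returns calcium to the sarcoplasmic reticulum, and Pln its inhibitor phospholamban. Atp2a2 was at 1237, 1407, 1483, and 1727 RPKM, 40.7-fold above the small intestine, and Pln at 1205, 977, 1291, and 879 RPKM, 423-fold above it, although 64.7% of the exon length of Pln overlaps another gene and reads there may be missing from its count. Casq2, the calcium-binding protein of the reticulum, was at 916, 646, 1085, and 658 RPKM, and Trdn, which ties it to the release channel, at 81.3, 99.6, 88.8, and 80.9 RPKM. Ryr2, the release channel itself, which was chosen after its values were seen, was at 37.9, 38.4, 24.8, and 67.1 RPKM and 363-fold above the next organ. Several members were not called. Slc8a1, the sodium-calcium exchanger, had 27 ± 3.42 RPKM in the heart and 16.8 RPKM in the kidney, a log2 fold change of 0.68 that passed the p threshold (adjusted p = 0.00916) but not the 2-fold limit. Camk2d and Sri had their highest level in the small intestine, and Itpr2, an inositol trisphosphate receptor chosen after its values were seen, was the 1 member called lower in the heart than in every other organ.

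Ion channel genes and their partners were far less abundant than sarcomere genes, and 32 of 46 were called, with a median fold of 9.52. Kcnj11 and Abcc9 encode the pore and the regulatory subunit of the ATP-sensitive potassium channel. Kcnj11 was at 25, 29.4, 28.6, and 37.6 RPKM and 183-fold above the small intestine (log2 fold change 7.68 ± 0.44 (SE), adjusted p = 2.14e-07), and Abcc9 at 27, 30.6, 26.2, and 35.2 RPKM and 7.63-fold above the liver. The pore was thus the member of the pair with the larger step. Kcnip2, the partner of the transient outward channel, was 28.3-fold above the small intestine at 37.3 ± 1.38 RPKM, and Kcnk3, a background potassium channel, 103-fold at 34 ± 3.57 RPKM. Cacna2d1, a subunit of the L-type calcium channel, was at 31.2, 24.7, 30.6, and 31 RPKM and 22-fold above the small intestine. Popdc2, a cyclic AMP-binding membrane protein of pacemaking and conduction, was the most abundant called member at 113, 137, 137, and 118 RPKM, 121-fold above the next organ.

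Further channel pores were chosen for naming after their values were seen. Cacna1c, the L-type calcium channel, was at 9.97, 9.77, 8.07, and 16.1 RPKM and 37.2-fold above the small intestine. The heart values were far apart from those of other organs in spite of a low level. Among potassium channels, Kcnj3 reached 244-fold, Kcnd2 228-fold, and Kcna5 53.4-fold, at heart means of 20.6, 4.86, and 6.91 RPKM. Hcn4, the pacemaker channel of the sinus node, had a heart mean of 0.757 RPKM and a fold of 8.16. Atp1b1, the β subunit of the sodium pump, had 67.8 RPKM in the heart and 480.2 RPKM in the kidney. Kcne1, a partner of the slow delayed rectifier, was at 12.3, 4.7, 8.1, and 5.54 RPKM against a kidney mean of 3.66 RPKM and was not called (adjusted p = 0.104). Fxyd1, the regulator phospholemman, had 179 RPKM in the heart and 92.7 RPKM in the liver, just under the 2-fold limit at 1.93.

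Junction genes of the intercalated disc were called in 8 of 14 cases, with a median fold of 2.61, and epithelia are known to use many of them. Ctnna3, the α-catenin of heart muscle, was the furthest from other organs, at 2.98, 4.5, 3.05, and 4.91 RPKM and 45.7-fold. Gja1, connexin 43 of the ventricular gap junction, was at 46, 31.6, 45.3, and 30.2 RPKM and 6.94-fold above the spleen. Desmosome members were split. Dsp, desmoplakin, was 2.39-fold above the small intestine and Pkp2, plakophilin 2, 2.82-fold above the liver, whereas Dsg2 had 12.7 RPKM in the heart and 37 in the small intestine, and Dsc2 14 and 54.8. The call of Dsp was lost without heart KO replicate 2 (log2 fold change 0.999) and with the hearts numbered 1 alone (0.55, adjusted p = 0.136).

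Receptors and signalling genes were called in 11 of 23 cases, with a median fold of 1.95. Chrm2, the muscarinic receptor through which the vagus slows the heart, was at 21, 25.3, 21.8, and 32.3 RPKM and 8.62-fold above the small intestine. Adrb1, the main adrenergic receptor of heart muscle, was low, at 2.84, 2.31, 3.65, and 2.59 RPKM, and 3.44-fold above the spleen. Akap6, an anchor of protein kinase A at the nuclear envelope, had the largest step in the list at 38.3-fold. Among the members not called, Ghr was at 31.1 RPKM in the heart and 129 in the liver, Agtr1a at 9.49 and 27.1, and Insr at 13.1 and 16.5.

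Of 27 tested transcription and splicing factors, 13 were called, with a median fold of 1.79. Nkx2-5, the homeobox factor of heart muscle, was at 10.7, 9.35, 9.59, and 19 RPKM and 10.7-fold above the spleen, the one other organ in which it had any sizeable level (1.13 RPKM). Rbm20 and Rbm24 direct the splicing of titin and other muscle transcripts, and were 31.9- and 52.1-fold above the next organ. Perm1, a regulator of energy genes in muscle, was at 70.6, 80.5, 75.9, and 94.1 RPKM, and Hopx at 143, 125, 178, and 75.9 RPKM with 3.77-fold over the small intestine. Tbx5 and Gata4 were chosen after their values were seen. Tbx5 was 299-fold above the liver at a heart mean of 3.11 RPKM, whereas Gata4 was at 14.9 RPKM in the heart and 12.1 in the small intestine and was not called. Other factors that were not called were Srf at 1.67-fold (adjusted p = 0.131), Mef2d at 1.15-fold, and Ppargc1a, the coactivator of mitochondrial genes, at 1.79-fold over the kidney.

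Nuclear genes of the respiratory chain combined high levels with small steps. Of 75 nuclear genes for subunits of oxidative phosphorylation, 48 were called higher in the heart than in every other organ and 72 higher than the mean of the other organs. The median ratio of the heart mean to that of an organ was 11.9 for the spleen, 3.51 for the liver, 3.32 for the small intestine, and 2.23 for the kidney, and the kidney was the next organ for 68 of the 75. Atp5b, the catalytic β subunit of ATP synthase, was at 1402, 1387, 1614, and 1422 RPKM against a kidney mean of 539 RPKM, a fold of 2.7 (log2 fold change 1.43 ± 0.29 (SE), adjusted p = 0.00114). Atp5a1, its partner α subunit, showed 3.07-fold, Cox4i1 of cytochrome oxidase 2.23-fold, and Cox6b1 2.03-fold, and in the WT libraries alone the latter pair was not called. The call of Cox6b1 was also lost without either of the heart libraries numbered 1, kidney WT replicate 1 or KO replicate 2, liver WT replicate 2, or either KO liver library. Summed over 76 gene entries rather than the 75 above, the nuclear subunits took 5.73% to 8.31% of the counts of a heart library and 3.14% to 4.29% of those of a kidney library, so the ranges did not overlap. Most members lay close to the 2-fold limit, and the count of 48 depended on the libraries. It was 30 without heart KO replicate 1, 34 without heart WT replicate 1, 36 without kidney WT replicate 1, 57 without heart WT replicate 2, 59 without heart KO replicate 2 and also without kidney WT replicate 2, 21 in the WT libraries alone, 54 in the KO libraries alone, and 32 with library totals in place of TMM. With more than 4-fold as the limit, 1 member remained.

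**Figure D3:**
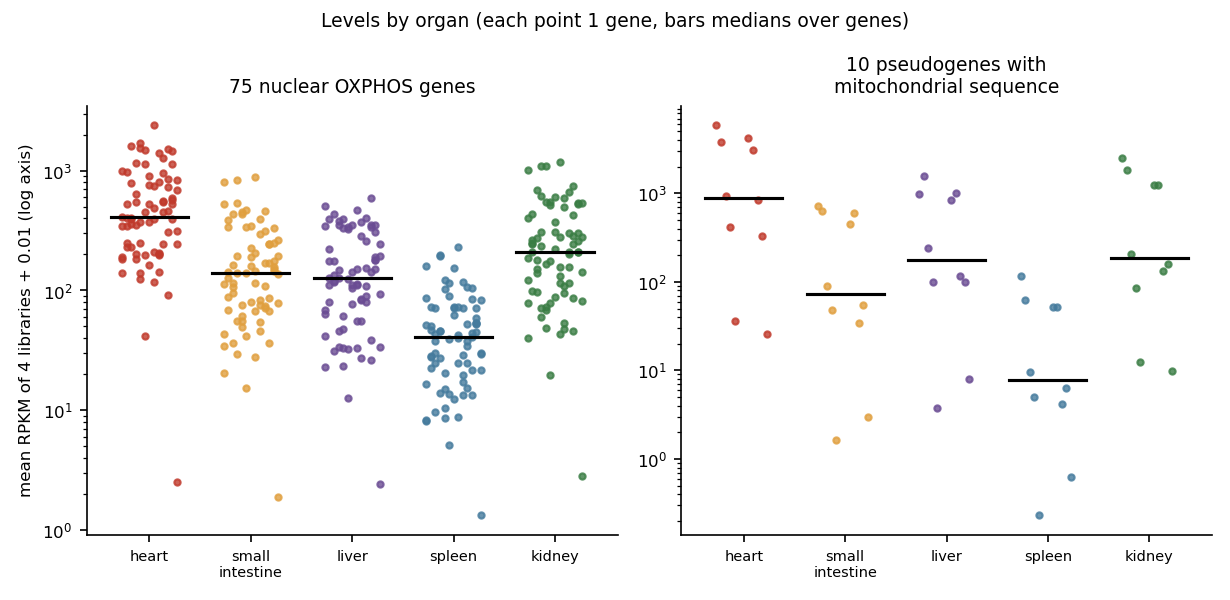
Mean RPKM of 4 libraries by organ with 0.01 added, on logarithmic axes; each point is 1 gene and bars are medians, with 75 nuclear genes of oxidative phosphorylation on the left and 10 pseudogenes of mitochondrial sequence on the right. In both panels the heart median is the highest of the 5 organs and the spleen median the lowest. The pseudogenes were searched for only among genes with a mean heart level of at least 10 RPKM.

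The TCA cycle behaved alike, with 12 of 21 genes called and a median fold of 2.26. Idh3b, a subunit of the NAD-dependent isocitrate dehydrogenase, was at 480.4, 319, 554, and 322 RPKM and 3.97-fold above the kidney. Pdha1, which feeds pyruvate into the cycle, showed 3.49-fold and Sdha 2.6-fold, while Mdh2 was 1.08-fold above the small intestine and Sdhd 1.88-fold, both not called. In the WT libraries alone 8 members were called, and with more than 4-fold as the limit 2. Sdha lost its call in the WT libraries alone (log2 fold change 1.26, adjusted p = 0.108). Outside all lists, the cytosolic partner Mdh1 was among the most abundant called genes, at 2607, 1768, 3022, and 1465 RPKM, but its step over the kidney was small (2.11-fold, adjusted p = 0.0635). Its call was lost without either of the heart libraries numbered 1, kidney WT replicate 1, either KO kidney library, liver WT replicate 2, or either KO liver library (log2 fold changes of 0.78 to 1.15), and in each genotype alone (adjusted p = 0.429 in WT and 0.108 in KO).

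Genes of fuel use were called in 22 of 40 cases, with a median fold of 2.25, and their steps were uneven. Pygm, the muscle glycogen phosphorylase, which was chosen after its values were seen, and Eno3, the muscle enolase, stood 131- and 79-fold above the spleen at heart means of 194 and 1022 RPKM. Fabp3, the fatty acid-binding protein of heart muscle, was at 12759, 6897, 15551, and 5523 RPKM and 49.2-fold above the kidney (log2 fold change 5.62 ± 1.03 (SE), adjusted p = 0.000531). Cd36, the fatty acid transporter, was at 968, 1184, 1131, and 994 RPKM and 18.5-fold above the spleen, and Lpl, the lipase that frees fatty acids from circulating triglycerides, at 655, 588, 755, and 742 RPKM and 9.34-fold above the kidney. Pdk4, the kinase that turns off pyruvate oxidation, was the most variable of these. It was at 133, 416, 242, and 63.4 RPKM. Of the enzymes of β-oxidation, Hadhb was 6.84-fold and Acadl 2.99-fold above the liver, while Acaa2 had 751 RPKM in the heart and 761 in the liver and Etfa 521 and 375. Ldhb, the lactate dehydrogenase form of aerobic tissue, was 1.73-fold above the kidney and not called.

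Of 18 genes of oxygen storage and energy transfer, 10 were called, with a median fold of 2.42, and the called members with the highest levels had large steps. Mb, myoglobin, was at 16538, 11934, 18429, and 11258 RPKM and held 1.999% of the heart counts, 673-fold above the small intestine, although 31.9% of its exon length overlaps another gene. Ckmt2, the creatine kinase of muscle mitochondria, was at 2544, 1686, 3019, and 2032 RPKM and 740.1-fold above the small intestine, and Ckm, the cytosolic muscle form, at 536, 653, 504, and 724 RPKM and 354-fold. Slc25a4, the muscle form of the ADP/ATP carrier, was 19.9-fold above the kidney at 4419 ± 1488 RPKM. In these 4 genes the heart libraries lay above every other library by a wide margin, whereas Slc6a8, the creatine transporter, was at 29.9 RPKM in the heart and 173 RPKM in the small intestine, and Ckmt1, the creatine kinase of other mitochondria, at 0.234 and 529 RPKM. The general carriers Slc25a5 and Slc25a3 were at 367 and 243 RPKM in the heart and 1079 and 227 RPKM in the small intestine.

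The muscle forms of cytochrome oxidase subunits differed most clearly from the rest of the respiratory chain. Cox6a2 made up 96.5% to 97.2% of the summed RPKM of Cox6a2 and Cox6a1 in the heart libraries and no more than 7.45% in any other library. Cox8b made up 84.7% to 86.7% of the sum with Cox8a, against no more than 1.55% elsewhere. Cox7a1 was less exclusive, at 58.7% to 70.7% of the sum with Cox7a2, against up to 30.1% elsewhere, the highest in the small intestine. The ranges of heart and other libraries did not overlap for any of the 3 pairs. In step with this, Cox6a1 was the nuclear subunit called lower in the heart than the mean of the other organs, at 192 RPKM in the heart and 1011 in the kidney, while Cox6a2 was at 7513, 3752, 8923, and 4067 RPKM.

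Several other pairs split in the same way. Ckm made up 97.7% to 99.0% of the sum with Ckb, which is the brain form, and at most 13.6% in another library. Slc2a4, the insulin-regulated glucose carrier GLUT4, made up 95.8% to 97.2% of the sum with Slc2a1 and at most 53.2% elsewhere, in the kidney. Atp2a2 was general in liver and kidney too, where it made up most of the sum with Atp2a3, and reached 99.8% to 99.9% in the heart. By contrast, Cpt1b, the muscle form of the enzyme that admits fatty acids to mitochondria, reached only 29.2% to 34.8% of the sum with Cpt1a, at 2.68 ± 0.448 RPKM, and 81.4% of its exon length overlaps another gene, so reads there may be missing from its count. The kidney shared the heart pattern for Ldhb, with 87.0% to 88.0% of the sum with Ldha, against 83.7% to 86.7% in the heart. Myh6 made up 97.7% to 98.7% of the sum with Myh7, the slow myosin heavy chain of the fetal mouse ventricle.

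**Figure D4:**
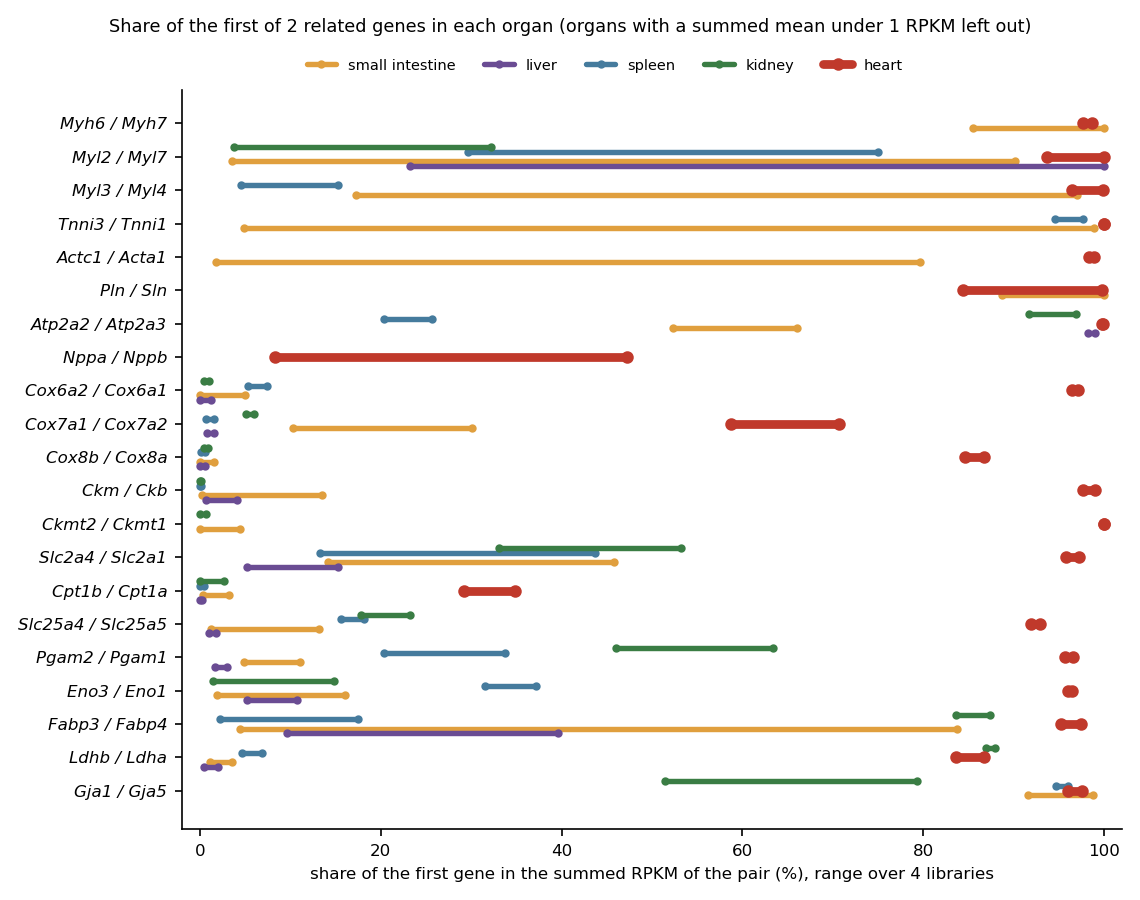
Share of the first gene in the summed RPKM of 21 pairs of related genes, in percent; each bar is the range over the 4 libraries of an organ, and organs with a summed mean under 1 RPKM are left out. The heart lies at the right for most pairs, such as Cox6a2, Cox8b, and Ckm, while the kidney lies beside it for Ldhb.

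The 13 protein-coding genes of the mitochondrial genome were listed at 0 in all 20 libraries, so the data hold no direct value for them. Reads with their sequence did appear, in 10 pseudogenes on nuclear chromosomes whose transcripts are 95.9% to 100% identical to mitochondrial genes. They were searched for only among genes with a mean heart level of at least 10 RPKM, so pseudogenes low in the heart could not enter. All 10 were called higher in the heart than in every other organ, which is not independent of how they were found. The pair below is shown because reads of this kind cannot be told apart: the first 60 bases of the transcript of Gm28661 (on chr1, minus strand, GRCm38) and of mt-Co2 are the same, as are all 681 bases. In the second pair, the capital marks the 1 mismatch between Gm29216 and mt-Co1 over 60 bases.
Gm28661: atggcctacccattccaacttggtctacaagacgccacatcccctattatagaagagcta
mt-Co2: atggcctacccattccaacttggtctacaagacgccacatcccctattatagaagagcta
Gm29216: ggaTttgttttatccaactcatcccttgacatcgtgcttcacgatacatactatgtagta
mt-Co1: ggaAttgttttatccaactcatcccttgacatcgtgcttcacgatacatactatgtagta

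Gm28661 was at 5017, 3819, 5053, and 9770.5 RPKM, with a mean of 2516 RPKM in the kidney and 117 in the spleen. Gm28437, identical to mt-Co3, was at 4574, 6484, 3484, and 2242 RPKM. The 4 libraries ranked differently in these genes. The 10 pseudogenes took 1.01% to 1.51% of the heart counts, and in the kidney 0.2503% to 0.876%, whereas the liver had 0.161% to 0.254%, the small intestine 0.0709% to 0.264%, and the spleen 0.0224% to 0.0420%. In the WT libraries alone, the difference to the kidney lost its call for Gm28661, Gm28437, Gm10925, and Gm29216. Leaving out all 10 before scaling gave 1858 genes higher in the heart than in every other organ.

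Secreted factors were the list least set apart: 16 of 48 tested genes were called, and the median fold of 0.893 lay below 1. A few members were nearly restricted to the heart. Nppb, B-type natriuretic peptide, was at 445, 509, 800.4, and 192 RPKM and 1097-fold above the small intestine (log2 fold change 12.77 ± 1.31 (SE), adjusted p = 4.29e-05). Nppa, the atrial natriuretic peptide, was at 291, 408, 72.2, and 172 RPKM and 889.6-fold above it, with 61.5% of its exon length overlapping another gene. Both peptides differed between heart libraries by several fold, and in KO replicate 1 Nppb was highest and Nppa lowest. Fndc5, the precursor of irisin, was at 244, 166, 237, and 194 RPKM and 319-fold above the small intestine. C1qtnf9, an adiponectin-related factor, was 67.6-fold above the kidney at 40.4 ± 7.75 RPKM, and Vegfb, a growth factor of the VEGF family, 6.93-fold at 71.1 ± 8.67 RPKM. Timp4, a metalloproteinase inhibitor chosen after its values were seen, was 409-fold above the small intestine at 11.3 RPKM.

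Other members were not called. Vegfa, the vascular growth factor, was at 136, 106, 113, and 136 RPKM against a liver mean of 105 RPKM (log2 fold change 0.22 ± 0.44 (SE), adjusted p = 0.726), and Fgf1 at a mean of 49.7 RPKM against 43 RPKM. Clu had its highest level in the liver (145 RPKM against 98.8 in the heart). Lgals4, a galectin of the gut, was at 49.7 RPKM in the heart and 1539.8 RPKM in the small intestine. Thus the secreted genes of the heart consisted of a few nearly restricted ones and many with equal or higher levels elsewhere.

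Matrix and basement membrane genes were called in 12 of 20 cases, with a median fold of 2.20 and the kidney as the next organ for 13 of the 20. Ogn, a small leucine-rich proteoglycan, was at 126, 171, 133, and 117 RPKM and 4.36-fold above the kidney. Mfap5, a protein of elastic microfibrils, had the largest step, 13.3-fold at 25.1 ± 4.5 RPKM, and Hspg2, perlecan of the basement membrane, was 7.98-fold above the kidney. Col4a1 and Col4a2, the collagen chains of the basement membrane, were at 1.46- and 1.7-fold and not called. Sparc and Nid1 lay just past the 2-fold limit, at 2.11- and 2.03-fold, and their calls depended on the libraries. That of Sparc was lost without heart WT replicate 2, kidney WT replicate 1, or kidney KO replicate 1 (log2 fold changes of 0.96, 0.77, and 0.98), and that of Nid1 without any of these, without heart KO replicate 2, or without liver WT replicate 2 or either KO liver library (0.76 to 0.95). In the WT libraries alone neither passed (adjusted p = 0.397 and 0.282).

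Genes in none of the lists included some of the most restricted ones. Tnni3k, a kinase that binds cardiac troponin I, was at 60.8, 42.2, 52.9, and 45 RPKM in the heart and at most 0.111 RPKM in any other library, 1478-fold above the small intestine. Mov10l1, a helicase best known from germ cells, was 1256-fold above it at 33, 21, 36.8, and 18.8 RPKM. Tecrl, a reductase-like protein of the endoplasmic reticulum in heart muscle, was at 53.4, 79.7, 61.3, and 74.4 RPKM, Ppp1r3a, a glycogen-targeting subunit of protein phosphatase, at 52.1, 79.2, 61.7, and 103 RPKM, and Yipf7 at 329, 289, 348, and 232 RPKM. Their folds were 1237, 1202, and 1049. Mhrt, a noncoding transcript of the myosin heavy chain locus, was at 60.3, 51.7, 34, and 117 RPKM, and 39.9% of its exon length overlaps another gene. Abundant genes of this group with small steps were Ech1, an enzyme of β-oxidation, at 4.1-fold over the liver, and Cst3, cystatin C, at 2.64-fold over the kidney. The call of Cst3 was lost in the WT libraries alone (adjusted p = 0.178) and with the hearts numbered 2 alone (log2 fold change 0.65, adjusted p = 0.154).

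Genes lower in the heart than in every other organ included no members of the sarcomere, Z disc, ion channel, TCA cycle, oxidative phosphorylation, secreted, or matrix lists. The genes named here were among those with the largest folds to the next lowest organ, out of genes with a minimum of 10 RPKM in that organ. Fabp1, the fatty acid-binding protein of liver and gut, was at 0.225, 1.29, 0.544, and 0.343 RPKM, and its lowest mean elsewhere was 15.2 RPKM in the kidney. Its call as lower was lost without heart WT replicate 1, KO replicate 1, or KO replicate 2 (adjusted p = 0.122, 0.104, and 0.132) and in the WT libraries alone (0.243). Dpp4, a brush border peptidase, was at 2.19, 2.16, 1.37, and 1.28 RPKM against 15.9 RPKM in the spleen, and Slc9a3r1, a scaffold under the brush border, at 2.85, 3.63, 2.03, and 2.96 RPKM against 19.99 RPKM there (log2 fold change -2.81 ± 0.25 (SE), adjusted p = 5.02e-07). Cks2, a partner of cyclin-dependent kinases, was at 1.44, 1.63, 7.4, and 1.17 RPKM against 31.7 RPKM in the small intestine. Stxbp2, a secretory syntaxin partner, was at 0.944, 1.42, 1.12, and 1.29 RPKM against 11.4 RPKM in the liver. Serp1, of the secretory pathway, was the most abundant in the heart of those named here, with 12.5 RPKM in the heart and 70.5 to 206 RPKM in the other organs.

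The interaction of genotype and organ asks whether the heart difference depended on Nsun6. No gene was called (0 of 21168, 0%). An unadjusted p below 0.05 was found for 308 genes, a smaller share than the 0.05 that chance alone would give. DESeq2 called 7 genes. With WT libraries alone, 1396 of 21742 genes (6.42%) were higher in the heart than in every other organ, and with KO libraries alone 1663 of 21682 (7.67%). The 2 fits share no library, and 1227 genes were called in both, 87.9% of the WT calls and 73.8% of the KO calls. Fewer calls in one genotype do not show a difference between genotypes, for which the interaction is the test.

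Heart transcripts also appeared in other organs at low level, chiefly in the small intestine of KO replicate 1. There, Myl2 was at 87.7 RPKM, Mb at 84, and Actc1 at 39.5, against no more than 1.14, 1.11, and 0.663 RPKM in the other 3 small intestine libraries. These values were 0.681%, 0.578%, and 0.583% of the heart mean. Nppb was at 1.78 RPKM there and at 0 in the other 3. Liver WT replicate 1 held smaller amounts, with Myl2 at 5.62 RPKM and Mb at 5.54 RPKM. Without the small intestine library, the fold to the next organ rose from 1012 to 12547 for Myh6, from 669 to 8280 for Actc1, and from 423 to 818 for Tnnt2. That of Des rose from 4.35 to 8.06, but Des stood at 189 RPKM in that library, 54.8% of its heart mean, and at 19.1 to 79.7 RPKM in the other 3, so it did not share the low percentage of the genes above. The fold rose from 571 to 7312 for Myl2, from 739 to 7878 for Myoz2, from 1013 to 4569 for Lmod2, from 797 to 1575 for Tnnc1, from 674 to 1642 for Tnni3, and from 74.9 to 177 for Smpx. Among calcium and channel genes it rose from 423 to 1485 for Pln, from 363 to 691 for Ryr2, from 13.1 to 24 for Casq1 (at 19.1% of its heart mean in that library), from 244 to 435 for Kcnj3, and from 37.2 to 65.1 for Cacna1c. For genes of other groups it rose from 673 to 8844 for Mb, from 740.1 to 9195 for Ckmt2, from 354 to 752 for Ckm, from 1097 to 16447 for Nppb, from 889.6 to 8133 for Nppa, from 1049 to 6190.3 for Yipf7, from 1478 to 6008 for Tnni3k, and from 1256 to 4003 for Mov10l1, and Tecrl was at 0 in each of the other 15 libraries outside the heart. Smpx and Cacna1c did not share the low percentage of Myl2, Mb, and Actc1 either. In small intestine KO replicate 1, Smpx was at 3.65% of its heart mean and Cacna1c at 0.702 RPKM against a heart mean of 10.97. Among called genes that the naming rule allows, 144 have a fold computed without that library. The fold of 30 of them rose by more than 1.5 times, and that of the others, such as Ankrd1, Cryab, Fhl2, Mylk3, and Ppp1r3a, moved by less. In the same way spleen WT replicate 2 holds liver transcripts, and with both libraries left out 1925 genes were higher in the heart than in every other organ and 812 lower.

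The 4 heart libraries differed among themselves in the levels of cell type and chamber markers. Of 11 atrial genes, 8 were called higher in the heart than in every other organ, and the summed level of the list was 842, 1506, 135, and 536 RPKM. KO replicate 1 was the lowest by far. Myl7, the atrial regulatory light chain and the most abundant gene of the list, was at 327, 696, 7.02, and 195 RPKM, and Sln, the atrial SERCA inhibitor sarcolipin, at 95.9, 180.4, 2.17, and 45.1 RPKM. Myl4, the atrial essential light chain, was at 60.5, 103, 2.58, and 44.2 RPKM. The same library held the least of the 4 epicardial genes, whose sum was 15.8, 17.2, 2.64, and 8.56 RPKM, with Upk3b the most abundant at 8.14, 9.33, 1.17, and 5.17 RPKM. The 7 ventricular genes moved less, with sums of 21762, 14848, 25486, and 12255 RPKM and Myl2 as the most abundant. Whether the part of the organ taken or the genotype lies behind the low atrial values cannot be told apart with 2 libraries of a genotype.

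Fat markers varied the most. The 7 adipocyte genes summed to 2.21, 231, 5.56, and 73.1 RPKM, and both libraries numbered 2 were high. Cfd, or adipsin, the most abundant of them, was at 0.811, 135, 3.76, and 51.3 RPKM, Adipoq, adiponectin, at 0.406, 32.8, 1.14, and 9.08 RPKM, and Plin1 at 0.067, 3.03, 0.0324, and 0.719 RPKM. None of the 7 was called higher in the heart than in every other organ. Fat also makes some of the secreted and fuel genes described above, such as Lpl, C1qtnf9, and Pdk4, and its part in their levels was not tested. Genes of airway and lung epithelium were present in every heart library. Their list summed to 66.7, 104, 15.4, and 52.1 RPKM, with Scgb1a1, the secretoglobin of club cells, at 58, 96.9, 13.6, and 45.2 RPKM, Sftpc at 7.84, 6.69, 1.6, and 6.33 RPKM, and Sftpb at 0.665, 0.112, 0.0765, and 0.217 RPKM. Scgb1a1 and Sftpc were called higher in the heart than in every other organ, although Sftpc was not in the WT libraries alone (adjusted p = 0.452) or with the hearts numbered 1 or 2 alone (0.212 and 0.103).

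Blood and vessel genes were measurable in all 4 libraries. The 5 erythroid genes summed to 4069, 2840.1, 7150.0, and 1347 RPKM, led by Hbb-bs at 2577, 1729, 4752, and 909 RPKM, and the spleen sum was higher. Endothelial genes were called in 6 of 11 cases and fibroblast genes in 5 of 9. Cdh5, an endothelial cadherin, was at 15.6, 21.1, 17.2, and 29.7 RPKM and 5.01-fold above the liver, Pecam1 at 35.7, 38, 39.6, and 43.4 RPKM, and Kdr at 9.55, 10.1, 9.01, and 9.65 RPKM. Dcn, decorin of fibroblasts, was at 221, 264, 219.8, and 197 RPKM and 3.54-fold above the liver. The 8 macrophage genes summed to 634, 506, 709.6, and 411 RPKM with Lyz2 in the lead, and none was called. Of 7 smooth muscle genes, 1 was called higher in the heart than in every other organ, and the median fold of the list was 0.109. The called member was Smtn, chosen after its values were seen, at a heart mean of 40.5 RPKM and 4.02-fold above the next organ. Acta2 was at 87.8, 73.6, 107, and 91.5 RPKM against 98.6 RPKM in the small intestine, Myh11 at 1.15, 3.05, 1.15, and 2.93 RPKM, and Tagln, 67.9% of whose exon length overlaps another gene, at 0.0627, 0.166, 0.151, and 0.215 RPKM.

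Most markers of skeletal muscle and of the other organs were low or at 0 in the heart. Myh1 and Myh4, the fast skeletal myosins, were at 0 in 3 of the 4 heart libraries and at 0.00864 and 0.0274 RPKM in the other, and Actn3 was at 0, 0.18, 0.104, and 0.131 RPKM. Of 10 tested skeletal genes, Casq1 and Cacna1s were called higher in the heart than in every other organ, 13.1- and 135-fold above the small intestine. Casq1 was the most abundant of the list, at 7.86, 3.8, 9.95, and 7.72 RPKM, and the list summed to 15.9, 11.99, 18.5, and 14.2 RPKM. Hepatocyte genes summed to 4.82 to 6.84 RPKM in the heart libraries against a mean of 151126 in the liver, with Alb at 1.57, 2.74, 0.386, and 1.85 RPKM. Enterocyte genes summed to no more than 0.656 RPKM, and Sis was at 0 in all but WT replicate 2. Kidney tubule genes summed to no more than 3.97 RPKM, and Umod was at 0 in all but WT replicate 1. B cell genes summed to 9.93, 19.4, 9.32, and 11.5 RPKM, with Ighm in the lead and Cd79a at 0.257, 3.94, 0.62, and 0.667 RPKM.

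**Figure D5:**
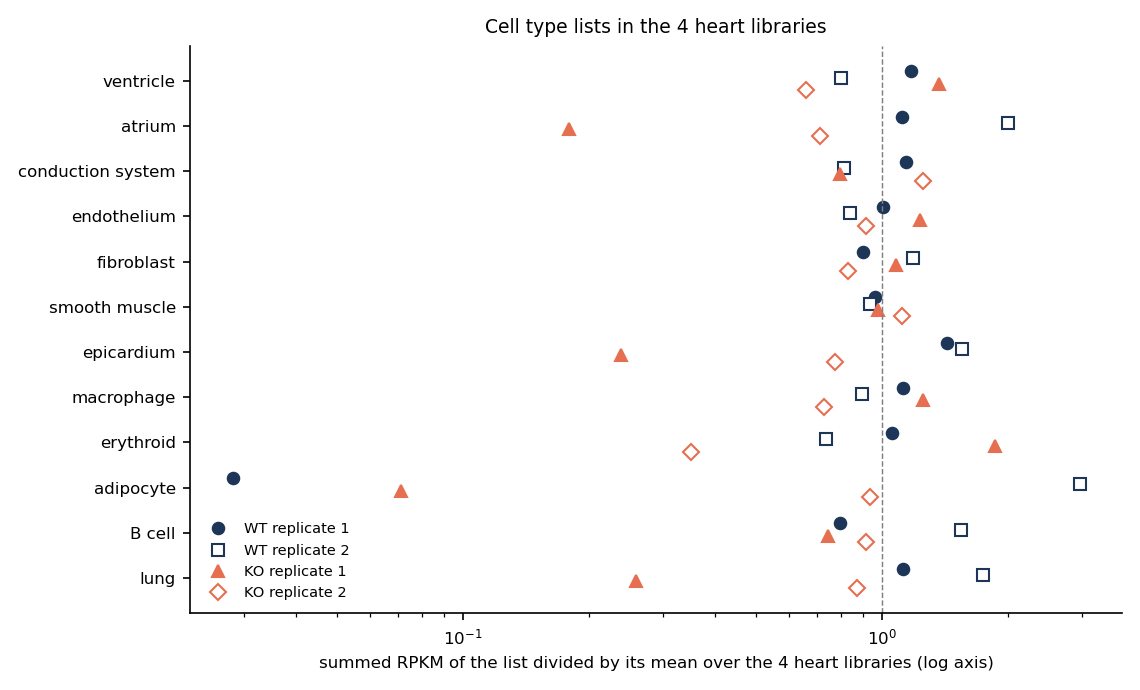
Summed RPKM of 12 lists of cell type and chamber genes in the 4 heart libraries, divided by the mean of the 4, on a logarithmic axis; blue symbols are WT and orange symbols KO libraries, and open symbols are replicate 2. KO replicate 1 lies far to the left for the atrium, epicardium, and lung lists, and both libraries numbered 1 lie to the left for the adipocyte list.

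Because the libraries numbered 2 share a header word and greater depth, the comparison was repeated with 1 pair of hearts at a time. With the hearts numbered 1 alone, 1593 genes were higher in the heart than in every other organ, and 1503 of them were among the 1868. With the hearts numbered 2 alone, 1778 genes were, and 1594 of them were among the 1868. Nuclear genes of oxidative phosphorylation moved between the pairs, with 62 members called with the hearts numbered 1 and 22 with those numbered 2, and their summed level was 52567 and 60312 RPKM in the libraries numbered 1 against 33286 and 30632 RPKM in those numbered 2. The heart libraries numbered 1 thus held more of these transcripts, in both genotypes. Some other lists differed in the same direction, and some in the opposite one. The thin filament list summed to 26919 and 29097 RPKM against 17577 and 18480.0 RPKM, that of fuel use to 24237 and 28298 against 17217 and 15435, and that of energy transfer to 39390 and 44736 against 24783 and 25184. In the opposite direction, the receptor list summed to 187 and 193 RPKM against 210 and 240. Transcription and splicing factors summed to 476 and 529 against 530 and 539, and the matrix list to 424 and 503 against 562 and 514. Each pair of hearts holds 1 WT and 1 KO library.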

How the data were processed

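Total RNA of dissected, frozen organs was made into stranded mRNA libraries, and the deposited table holds raw counts per gene for 20 libraries with no column left unassigned. Per the labels and the header of the file, the authors trimmed reads with cutadapt, mapped them to mm10 with HISAT2 2.1.0, and produced the counts with featureCounts 2.0.1 on exons of Ensembl release 102 for GRCm38. The methods of the study name reverse-stranded counting of paired reads, but the stored command holds no strand or pair option, so genes that overlap on opposite strands cannot be told apart and both mates of a fragment may count. The length of merged exons per gene, another deposited column of base pairs per the file header (the authors' other value), was used for RPKM. Pooled columns were absent.

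Of 55401 genes, 21168 passed edgeR's filterByExpr by organ. Counts were fitted with edgeR 4.0.16 in R 4.3.3 (TMM, robust quasi-likelihood test, 10 means of organ and genotype), with Benjamini-Hochberg adjustment over all genes tested. A gene was called at an adjusted p under 0.1 and more than 2-fold. Folds of mean levels take a floor of 3 counts per organ. The test was checked on simulated data, but no outcome of that check is given here.

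Named are the 3 markers, Nsun6, in each list up to 8 called and 4 other members with the highest heart level, members of pairs of related forms, up to 10 genes outside the lists by level or fold, up to 10 lower genes, and defining markers of other cell types. A few genes that the rule allows are not reported here. Genes outside this rule are said to be chosen after their values were seen. The choice of the heart as the subject, the lists, and the pairs were made with earlier results of these data known. Alternatives covered scaling, DESeq2 1.42.0, filters, design, thresholds, genotype, and each library left out. The fits without pseudogenes of mitochondrial sequence, without 2 libraries that hold transcripts of another organ, and with hearts of 1 number alone were chosen after seeing the data. Single heart libraries were set against the other 3 by their gap. Promoters came from a RefSeq table of GRCm38.p6, and 1223 of 1867 symbols of genes called higher matched one.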

Additional observations from a re-analysis of the deposited data

Results flagged for a closer look

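Of 192 sets of 4 libraries examined for a single library far from the others, 11 stood apart. These include 4 small intestine sets of heart genes picked by name, which do not bear on how often sets stand apart. Chance alone sets apart about 1 in 20 sets. In the heart, KO replicate 2 was high for Nkx2-5 (18.97 RPKM against 9.35 to 10.7 in the other 3). KO replicate 1 was high for Atp5b (1614 RPKM against 1387 to 1422) and for Cks2 (7.40 against 1.17 to 1.63). WT replicate 2 was low for Cacna2d1 (24.7 RPKM against 30.6 to 31.2) and high for the B cell gene Cd79a (3.94 against 0.257 to 0.667) and for the summed enterocyte genes (0.656 against at most 0.0868). WT replicate 1 was low for the summed transcription and splicing factors (476 RPKM against 529 to 539).

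In the small intestine, KO replicate 1 stood apart for all 4 heart genes examined there. The 4 are among the genes described above as high in that library, so this restates those values and adds no separate support. Myl2 was at 87.7 RPKM against at most 1.14 in the other 3 libraries, Mb at 84.0 against at most 1.11, Actc1 at 39.5 against at most 0.663, and Nppb at 1.78 against 0. What put heart transcripts into that library was not tested.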

How the results depend on the processing

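None of the 159 called genes among the 261 that the naming rule allows reversed under any alternative. With more than 4-fold as the limit, 2744 genes were higher and 2154 lower than the mean of the other organs, and 1062 were higher and 442 lower than every other organ. In the WT libraries alone 467 genes were lower than every other organ. The interaction of genotype and organ called 7 genes with DESeq2 and 69 without a filter on low counts. Leaving out 1 library at a time gave 4597 to 5146 genes higher and 3770 to 4302 lower than the mean of the other organs, 1788 to 1994 higher and 763 to 957 lower than every other organ, and 0 to 0 for the interaction. Median shifts of all genes ran from -0.13 with TMM to -0.16 with RLE, -0.25 with library totals, and -0.42 with the hearts numbered 1 alone, and with library totals 1547 genes were higher than every other organ, 1486 of them among the 1868. DESeq2 called 1762 and 982 genes higher and lower than every other organ, and its share of higher among all calls against the mean of the other organs was 47.4% in place of 54.6%. Without the spleen library that holds liver transcripts 1891 genes were higher.

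With genotype and replicate number as a replicate block, 4822 genes were higher and 4555 lower than the mean of the other organs, 1889 higher and 871 lower than every other organ, and 0 were called for the interaction. Libraries with the same number shared little of their deviation from the group means. The 8 correlations of these deviations between a heart library and that of another organ ran from -0.0729 to 0.113. With 2 libraries in a group, they cannot decide whether libraries with the same number came from 1 animal, which the labels do not say. Of the 159 called genes, 28 fell short under at least 1 alternative fit, for 22 of them against the kidney, and 41 fell short with more than 4-fold as the limit. Depth limits low genes: the 2 heart libraries numbered 1 held 15897446 and 17959542 counts.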

Other observations

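Nerve and conduction genes were measurable in the heart at low level. Of 5 tested nerve and glia genes, 2 were called higher in the heart than in every other organ, with a median fold of 1.31. That list summed to a mean of 4.75 RPKM in the heart and 7.07 RPKM in the kidney. Its member with the largest fold was Dbh, the enzyme that makes noradrenaline in sympathetic nerves. Dbh was at 3.52, 1.96, 2.74, and 1.39 RPKM and at no more than 0.0542 RPKM in any other library. Of 8 tested genes of the conduction system, 5 were called higher in the heart than in every other organ, and the list summed to 10.6, 7.54, 7.36, and 11.7 RPKM in the 4 heart libraries. The sum of means of the conduction list was higher in the small intestine, at 29.0 RPKM against 9.29 RPKM in the heart. The ventricular factors Irx4 and Hey2 were at 9.2, 6.04, 7.56, and 10.9 RPKM and at 1.45, 1.76, 1.52, and 1.91 RPKM, with folds of 37.9 and 4 over the spleen.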
